A study of Mus musculus with 120 samples.

Results

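The genes described here are 41 mouse interferon-stimulated genes, a set written as a list of symbols and kept where the mean over the libraries was at least 0.5. All 41 had a row and passed that minimum, among 24882 rows of the table used, of which 13289 passed it. They were measured by RNA sequencing of liver from 10 Collaborative Cross strains (CC043, CC013, CC060, CC041, CC032, CC011, CC003, CC042, CC040 and CC019), inbred lines that each combine the genomes of several founder strains in a different mosaic. In each strain, females and males received for 12 weeks either an HF/HS diet, with 42% of its energy from milkfat, 0.2% cholesterol and over 30% sucrose, or a control diet matched in ingredients but low in fat and reduced in sucrose. The 40 groups of strain, sex and diet had 3 libraries each, but 2 columns of CC040 females, library 3 on control and library 1 on HF/HS, held identical values and both were left out of the 120, which left the libraries used here (29 female control, 29 female HF/HS, 30 male control and 30 male HF/HS). No label gives the age of the mice, and none states whether a group's 3 libraries stand for different mice, so every p-value measures only the spread between these libraries.

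Interferons are secreted when cells sense viral or other nucleic acid, and act on neighbouring cells through receptors whose kinases phosphorylate STAT proteins. STAT2 and IRF9 are part of a complex that binds the interferon-stimulated response element (ISRE) before many genes, while interferon gamma works mainly through the gamma-activated site (GAS). The products sense RNA, degrade it, block viral entry and release, or feed peptides to class I molecules. In liver, hepatocytes and Kupffer cells, the resident macrophages, both respond to interferon.

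Promoters were examined first, since the ISRE is the sequence these genes are known for. RefSeq promoter windows (build GRCm38.p6, the 250 bases before each start) held 30 of the 41 genes. The ISRE core searched was GAAA, any 2 bases and GAAA again, on both strands, and 16 of the 30 genes (53.3%) held it, against 936 of 27025 genes (3.46%) with a window of that length and 3.35% of the genes tested here. The 16 were Bst2, Gbp2, Gbp3, Gbp7, Ifit1, Ifit3, Igtp, Irgm1, Irgm2, Isg15, Oas1a, Oas1g, Oas3, Rsad2, Stat2 and Trim30a. The GAS letters TTCNNNGAA, which read the same on both strands, were in a window of 8 of the 30 genes (26.7%) against 8.13% of all genes. The genes without an entry were Dhx58, Ifi27, Ifi27l2a, Ifi27l2b, Iigp1, Mx1, Mx2, Oas2, Parp14, Rtp4 and Usp18. The windows printed are those of the 6 genes with an ISRE core whose diet difference in females had the lowest p, so that the letters can be read beside the values given for these genes. Capitals mark the ISRE core in either orientation, the sequences run 5′ to 3′ on the strand of the gene, and their positions are Bst2 chr8:71537473-71537722 (minus strand), Gbp3 chr3:142559794-142560043 (plus strand), Oas3 chr5:120777660-120777909 (minus strand), Trim30a chr7:104465194-104465443 (minus strand), Gbp2 chr3:142620413-142620662 (plus strand), Ifit3 chr19:34583279-34583528 (plus strand).
Bst2: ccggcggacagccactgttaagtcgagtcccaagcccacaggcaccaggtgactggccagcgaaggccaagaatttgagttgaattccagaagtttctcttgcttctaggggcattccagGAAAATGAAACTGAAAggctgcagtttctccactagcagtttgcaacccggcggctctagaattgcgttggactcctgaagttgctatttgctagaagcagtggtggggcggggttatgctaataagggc
Gbp3: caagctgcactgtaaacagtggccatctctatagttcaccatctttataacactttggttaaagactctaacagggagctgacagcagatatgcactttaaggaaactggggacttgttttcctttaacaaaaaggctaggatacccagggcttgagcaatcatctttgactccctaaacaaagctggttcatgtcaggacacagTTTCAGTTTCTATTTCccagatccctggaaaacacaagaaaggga
Oas3: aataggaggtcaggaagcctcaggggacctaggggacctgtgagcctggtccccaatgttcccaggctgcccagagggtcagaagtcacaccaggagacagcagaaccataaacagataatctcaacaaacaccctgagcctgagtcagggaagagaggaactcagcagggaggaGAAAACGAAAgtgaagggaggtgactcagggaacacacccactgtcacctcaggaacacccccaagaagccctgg
Trim30a: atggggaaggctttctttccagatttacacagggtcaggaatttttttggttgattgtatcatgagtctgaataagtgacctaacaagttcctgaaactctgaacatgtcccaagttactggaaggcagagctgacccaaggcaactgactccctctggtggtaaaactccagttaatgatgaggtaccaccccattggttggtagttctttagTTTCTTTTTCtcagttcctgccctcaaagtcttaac
Gbp2: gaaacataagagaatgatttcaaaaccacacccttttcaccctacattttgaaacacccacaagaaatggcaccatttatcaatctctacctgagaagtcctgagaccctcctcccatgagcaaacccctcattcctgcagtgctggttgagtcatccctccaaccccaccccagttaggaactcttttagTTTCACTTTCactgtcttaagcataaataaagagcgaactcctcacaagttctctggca
Ifit3: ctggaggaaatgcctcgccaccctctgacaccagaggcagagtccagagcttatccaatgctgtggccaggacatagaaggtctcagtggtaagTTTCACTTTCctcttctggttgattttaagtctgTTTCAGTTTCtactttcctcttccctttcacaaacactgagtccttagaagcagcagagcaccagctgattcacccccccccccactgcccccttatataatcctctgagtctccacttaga

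The matches differed in place and orientation. In Bst2, 2 overlapping matches on the strand of the gene began 130 and 124 bases before the start, and in Oas3 the single match began 75 bases before it. Those of Gbp3 (45 and 39 bases before the start), Gbp2 (59), Trim30a (36) and Ifit3 (156 and 122) read on the opposite strand. A match describes letters, not a bound site. On the HF/HS diet, 6 of the 16 genes with the core rose in females (median log2 difference 0.19), as did 6 of the 14 without it (0.20) and 4 of the 11 without an entry (0.16).

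The values are length-scaled expression values (FPKM-like, rescaled by the authors), called values from here on, and sequencing depth is unknown. The liver label was checked with 12 hepatocyte genes, whose summed value was between 47227 and 245726 in every library, although Alb was listed at 0 in 102 of the libraries used, so a 0 can be a failed estimate. Libraries of 2 strains differed in kind: the median value of Snord104, a small RNA without a poly(A) tail, was 755340 for CC003 and 0 for CC060, and it lay between 25043 and 53197 elsewhere. For those 2 strains, a strain difference cannot be told apart from library preparation. Reads were mapped to mm10, a genome based on C57BL/6, and the part of strain sequence differences in the values was not tested. Close relatives may share reads, so the split of values within Gbp2, Gbp3 and Gbp7, Oas1a and Oas1g, Ifi27l2a and Ifi27l2b, Mx1 and Mx2, Oasl1 and Oasl2, Irgm1 and Irgm2, and the Ifit genes is uncertain, and Ifi27 lies within the interval given for Ifi27l2a. In bulk liver, fewer cells of a type and less RNA per cell cannot be told apart.

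Levels of the 41 genes covered a wide range. The median value over all libraries used went from 0.623 for Oas3, an oligoadenylate synthetase that makes the activator of RNase L, to 209.5 for Iigp1, a GTPase that acts on the membranes around intracellular parasites, and 207 for Bst2, the tether that holds budding virus at the cell surface. Once each group's mean was removed, the genes varied together from library to library. The deviation of a gene from its group mean had a median Pearson r of 0.68 with the median deviation of the other 40 genes, from 0.19 for Ifi27l2b to 0.86 for Rtp4, a chaperone of receptors. Between pairs of the 41 genes the median r was 0.45, against -0.001 between pairs of all genes tested. These correlations are a description over all the libraries used (29 or 30 for each sex and diet), which share strain, sex and diet groups. Among the 10 genes outside the set that followed its median most closely (r between 0.73 and 0.83) were Gm12250, Uba7, Gbp6, Gbp9, Ddx60, Shisa5, Ifi47, Gbp10 and Lgals3bp.

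A few libraries stood apart from their groups. The plot of library medians shows, for each library, the median over the 41 genes of log2(value + 1) minus the gene's mean over libraries. CC011 female HF/HS library 1 was at 1.07, against 0.45 and 0.22 in the other 2 of its group, and CC032 female HF/HS library 2 was at 0.997, against 0.05 and 0.26. CC060 male control library 1 was at 0.92, against 0.26 and 0.54. The summed value of 14 Kupffer cell markers was 2129 in that CC011 library, against 1279 and 761 in its group, and 2013 in that CC032 library, against 1444 and 1324. In the CC060 library it was 853, below the 1042 and 1318 of its group. The neutrophil marker sum differed more: it was 842 in the CC011 library, against 242 and 25.3, while it was 40.2 in the CC032 library, against 31.02 and 74.1, and 3.84 in the CC060 library, against 93.7 and 18.1. The part of these marker levels in the results was not tested, and counts without the 3 libraries, a choice made after the values were seen, stand beside the results or here. They were 9 for diet over all groups, 4 for diet in males, 24 for sex on control and 45 for single groups, against 10, 4, 20 and 38 with all libraries. CC011 female control library 2, at 0.35 above its group mean, lay as far out as the CC060 library (0.35) and was kept.

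**Figure D1:**
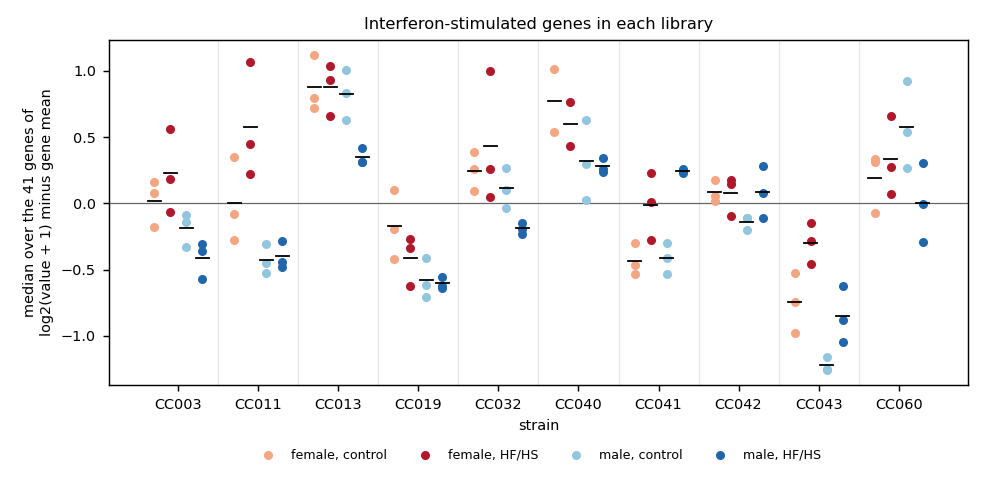
Median over the 41 genes of log2(value + 1) minus the gene's mean, on the y axis, for each library used, by strain on the x axis and coloured by sex and diet, with a black bar at each group mean. CC013 libraries lie high and CC043 libraries low in both sexes, and the male HF/HS points of CC011 lie below all female HF/HS points of that strain.

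In females, the HF/HS diet went with higher values of many of these genes. Of 41, 16 rose and 0 fell (39.0%), against 9.15% of the 13289 genes tested that rose and 7.52% that fell (limma on log2(value + 1), adjusted p under 0.05 after Benjamini-Hochberg over all genes tested). The difference was above 0 for 38 of 41, with a median of 0.19 on the log2 scale against 0.00 over all genes tested. Strains were not alike: most genes were below 0 in females of CC019 (32 of 41, median -0.22), CC040 (30, median -0.13) and CC042 (22, median -0.05). In females of the other strains most were above 0, from 27 of 41 in CC013 (median 0.07) to 40 in CC011 (median 0.46) and CC043 (median 0.42). The 16 were Ifi27l2b, Bst2, Dhx58, Tap1, Oasl2, Gbp3, Rtp4, Xaf1, Irf7, Psmb9, Oas3, Trim30a, Ifi27l2a, Gbp2, Irf9 and Ifit3. Most of these differences were small, between 0.15 for Irf9 and 0.38 for Ifi27l2a apart from Ifi27l2b.

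Among the cytosolic RNA sensors, 1 of 3 rose in females. Dhx58 (LGP2, chr11:100694883-100704271 on mm10), a helicase that modulates signalling by the other sensors, had values from 2.67 to 14.5 in female control libraries (median 6.61) and from 3.88 to 14.3 in female HF/HS libraries (median 7.80). The ranges overlapped over almost their whole length, and the group mean was higher on HF/HS in 8 of 10 strains (such counts of strains compare group means of log2(value + 1)). The log2 difference was 0.30 ± 0.06 (SE), a 1.23-fold change on the value + 1 scale, with a limma adjusted p of 0.000418. Ddx58 (RIG-I) and Ifih1 (MDA5), the helicases that signal through MAVS, were at 0.11 and 0.04 and were not called.

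Of the 4 transcription factors, Irf7 and Irf9 rose in females. Irf7 (chr7:141263182-141266424), which amplifies the induction of interferon genes, had values from 2.52 to 63.4 (median 20.8) on control and from 5.47 to 67.7 (median 23.7) on HF/HS, a log2 difference of 0.27 ± 0.08 (limma adjusted p = 0.0160). Irf9, the DNA-binding partner of STAT2, went from a median of 21.0 (12.4 to 35.0) to 24.6 (14.6 to 34.8), a difference of 0.15 ± 0.05 (limma adjusted p = 0.0374). Both genes' ranges overlapped between the diets, with Irf7 higher on HF/HS in 7 of 10 strains and Irf9 in 9 of 10. Stat2 itself, at -0.04, and Irf1, at 0.20 with the wider SE of 0.11, were not called. Neither Isg15, the ubiquitin-like modifier (0.18), nor Usp18, the protease that removes it and dampens the receptor (-0.02), passed the test.

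Among 7 antiviral effectors, Bst2 and Ifit3 rose in females. Bst2 (chr8:71534261-71537437) had values from 76.9 to 365 (median 199.9) on control and from 129.8 to 494 (median 218) on HF/HS in females. Ranges overlapped here too, yet the group mean was higher on HF/HS in all 10 strains, and the log2 difference was 0.31 ± 0.06 (limma adjusted p = 0.000140). Ifit3, of the same family as Ifit1, rose by 0.25 ± 0.09. Ifit1, Ifit2, Mx1, Mx2 and Rsad2 (viperin, which makes a chain-terminating nucleotide) were between 0.06 and 0.20 and were not called.

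In the OAS family, 2 of 6 rose in females, Oasl2 (0.27 ± 0.08) and Oas3 (0.21 ± 0.07), and the other 4 were between 0.16 and 0.23. All 6 sit in 2 stretches of chromosome 5, with Oas2, Oas3, Oas1g and Oas1a in that order between 120730332 and 120907525. Of 9 other induced genes, 5 rose. Ifi27l2b (chr12:103450897-103457223), a small mitochondrial protein of the Ifi27 family, had the greatest difference of the 41: values ran from 0 to 86.9 (median 3.20) on control and from 0.328 to 101 (median 5.52) on HF/HS in females. Its ranges overlapped, with 8 of 10 strains higher on HF/HS, and the log2 difference was 0.75 ± 0.14 (limma adjusted p = 7.19e-05). Ifi27l2a, Rtp4, Xaf1 (an inhibitor of anti-apoptotic proteins) and Trim30a rose by 0.38, 0.29, 0.22 and 0.21, whereas Ifi27 stood at 0.03.

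Among 7 interferon-inducible GTPases, Gbp2 (0.35 ± 0.12) and Gbp3 (0.33 ± 0.10), guanylate-binding proteins that coat intracellular pathogens, rose in females. The immunity-related GTPases Igtp, Irgm1, Irgm2 and Iigp1 were between -0.07 and 0.10. Of 3 antigen-processing genes, Tap1 and Psmb9 rose. Tap1 (chr17:34187555-34197225), a subunit of the transporter that carries peptides into the endoplasmic reticulum, went from a median of 12.1 (3.46 to 38.7) to 15.1 (7.61 to 38.7) in females. The ranges overlapped, 8 of 10 strains were higher on HF/HS, and the log2 difference was 0.29 ± 0.08 (limma adjusted p = 0.00923). Psmb9, an immunoproteasome subunit whose promoter window overlaps that of Tap1, rose by 0.30 ± 0.09, and Psmb8 was at 0.17.

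Shares over all genes tested are not given for alternatives or for unadjusted p-values, so a change common to all genes cannot be told apart there. The female count moved with the libraries used. It was 7 without the 3 libraries that stood apart (10 without CC032 female HF/HS 2 alone), 10 without strain CC011, 10 without CC041, 5 without CC043, 5 and 10 without the female control libraries numbered 1 and 2, and 8 without the female HF/HS libraries numbered 2, and it was 0 with the strain as the unit (19 at an unadjusted p under 0.05 in limma), where 24 of the sex differences on HF/HS described further on were still called. Without CC043, Tap1 was no longer called (adjusted p = 0.0613), nor was it without the female control libraries numbered 1 (0.0540) or 3 (0.0635). Markers of other cells moved with the diet in females as well. Of 14 Kupffer cell markers, 7 rose and 0 fell (Mpeg1 by 0.57, Cd5l by 0.53 and Cd68 by 0.45), against 9.15% and 7.52% of all genes tested. The summed value of the 14 ran from 382 to 2012 (median 743) on control and from 429 to 2129 (median 896) on HF/HS. No marker was at 0 in all libraries, and their part in the result was not tested.

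**Figure D2:**
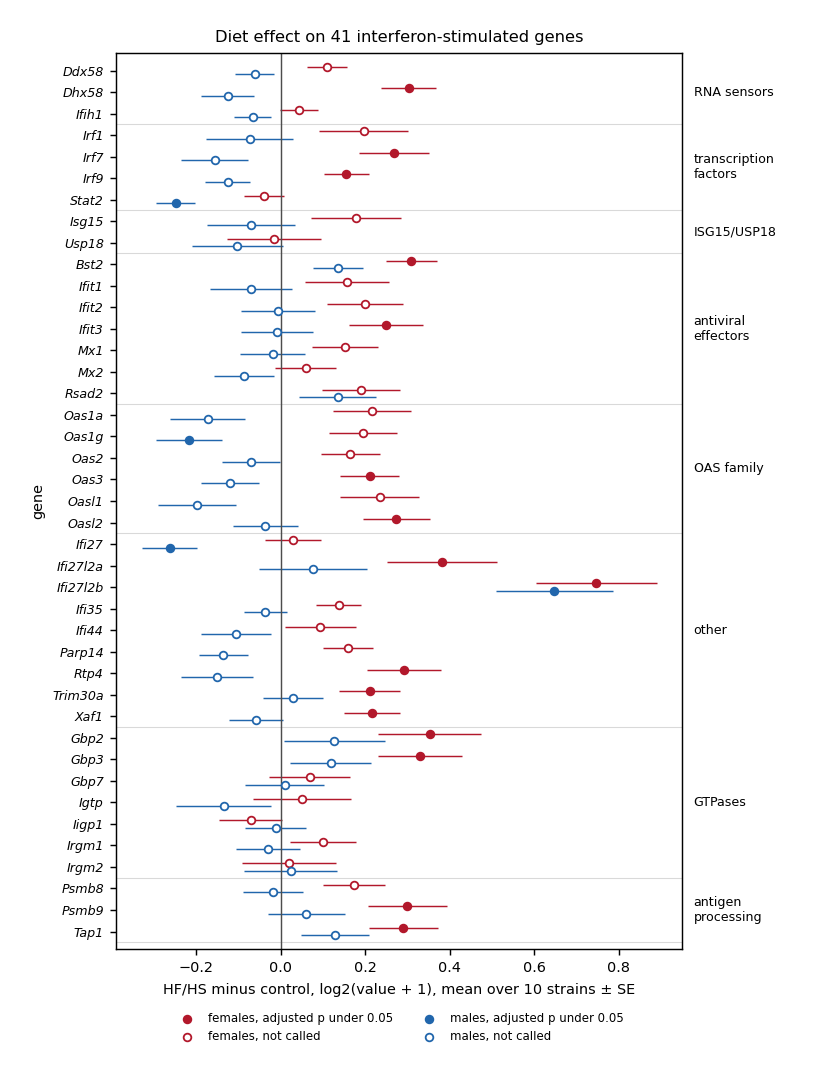
HF/HS minus control in log2(value + 1), mean over 10 strains ± SE, on the x axis, for each of the 41 genes on the y axis, ordered by role; females in red, males in blue, filled where the adjusted p was under 0.05. The red points of 38 genes lie above 0 and the blue points of 30 genes below it, with Ifi27l2b filled on the right in both sexes.

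In males, the diet went with few changes. Of 41 genes, 1 rose and 3 fell, against 10.6% of all genes tested that rose and 9.37% that fell, and the median log2 difference was -0.06 with 30 genes below 0. Stat2 (chr10:128270575-128292849) had values from 14.2 to 38.7 (median 21.8) on control and from 13.1 to 32.9 (median 17.2) on HF/HS in males, overlapping ranges with a lower group mean on HF/HS in 9 of 10 strains. It fell by 0.25 ± 0.05 on the log2 scale (limma adjusted p = 1.40e-05). Ifi27 (chr12:103434188-103440245) went from a median of 84.4 (11.8 to 392) to 79.2 (14.2 to 291) and fell by 0.26 ± 0.06 (limma adjusted p = 0.00144). The ranges overlapped, and its group mean was higher on HF/HS in 4 of 10 strains. Oas1g fell by 0.22 ± 0.08 (adjusted p = 0.0372), and Ifi27l2b rose by 0.65 ± 0.14 from a median of 3.02 (0 to 50.5) to 7.95 (0 to 40.5). Without the CC041 libraries 1 rose and 8 fell, and without the male control libraries numbered 2, 1 rose and 6 fell.

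The difference between the sexes in the diet effect was tested directly. It was below 0, that is, lower in males, for 39 of 41 genes (median -0.21 against 0.00 over all genes), and 4 of 41 were called, all lower in males, against 0.482% of all genes tested that were lower in males and 0.376% that were higher. At an unadjusted p under 0.05 there were 18, but shares over all genes tested at an unadjusted p are given neither here nor elsewhere in the text. Dhx58 had a male minus female diet effect of -0.43 ± 0.09 (limma adjusted p = 0.00483), from 0.30 in females and -0.13 in males, whose medians were 7.42 (2.81 to 14.7) on control and 6.97 (3.37 to 12.2) on HF/HS. Irf7 was at -0.42 ± 0.11 (adjusted p = 0.0463), Irf9 at -0.28 ± 0.08 (0.0463) and Oas1g at -0.41 ± 0.11 (0.04995).

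These 4 calls did not hold equally. Male Irf7 ran from 2.55 to 74.9 (median 17.6) on control and from 3.60 to 42.0 (median 18.4) on HF/HS, and male Irf9 from 8.81 to 36.3 (median 20.6) and from 10.1 to 29.2 (median 20.1), so the diets overlapped in males as in females. Oas1g had medians of 2.38 (0.419 to 7.47) and 2.75 (0.555 to 9.39) in females and of 1.89 (0.234 to 9.55) and 1.43 (0.364 to 5.57) in males. When 1 strain or the libraries of 1 number in 1 sex and diet were left out in turn, 22 times, Dhx58 lost its call in 1 of the 22 (without the male HF/HS libraries numbered 2, adjusted p = 0.0542), Irf7 in 15, Irf9 in 17 and Oas1g in 18. The count was 0 without the CC003 and CC060 libraries, where 11 genes had an unadjusted limma p under 0.05, and 1 without the 3 libraries that stood apart. Over the 22 omissions it was between 0 (without the male HF/HS libraries numbered 2, 14 genes at an unadjusted p under 0.05 in limma) and 7 (without CC019).

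Over both sexes together, 8 genes rose and 2 fell, against 16.7% and 14.6% of all genes tested. Ifi27l2b (0.70 ± 0.10), Bst2 (0.22 ± 0.04) and Tap1 (0.21 ± 0.06) rose, and Stat2 fell by 0.14 ± 0.03 (adjusted p = 0.000262). In females Stat2 had run from 13.5 to 41.9 (median 19.3) on control and from 13.2 to 36.3 (median 19.8) on HF/HS with a log2 difference of -0.04. In males Bst2 ran from 97.8 to 943 (median 194) and from 121 to 491 (median 229), and Tap1 from 3.43 to 28.5 (median 13.3) and from 6.12 to 28.1 (median 14.1). The total of 10 was 4 without CC043, where Tap1 had an adjusted p of 0.0670, 5 without CC041, CC042 or the male HF/HS libraries numbered 1, and 6 without the female control libraries numbered 1, the female HF/HS libraries numbered 2 or the male control libraries numbered 2 or 3.

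Sex differences were more widespread than diet differences, as they were over all genes tested, and on the HF/HS diet they took in nearly the whole set. On the control diet, 17 of 41 genes were lower in males and 3 higher, against 18.8% and 23.2% of all genes tested, with a median male minus female log2 difference of -0.17 (0.01 over all genes). On HF/HS, 36 were lower and 0 higher, against 20.8% and 23.8%, with a median of -0.39 (0.01 over all genes). The HF/HS difference minus the control difference is the sex difference in diet effect given above, and the 3 tests share libraries, so they are not independent.

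All 7 GTPases were lower in males on both diets. Gbp7 (chr3:142530335-142550151) ran from 3.24 to 47.3 (median 13.9) in control females and from 1.30 to 24.9 (median 7.91) in control males. Male values lay lower but overlapped, the group mean of log2(value + 1) was lower in males in all 10 strains (the mean of the values themselves in all but CC060, at 5.57 in males and 5.37 in females), and the log2 difference was -0.84 ± 0.09 (limma adjusted p = 3.79e-12). Gbp3, its neighbour on chromosome 3, had medians of 6.87 (1.17 to 49.0) and 3.77 (1.16 to 25.1), a difference of -0.73 ± 0.10 with 9 of 10 strains lower in males. Gbp2 had medians of 8.17 (2.29 to 38.5) and 5.001 (1.58 to 23.4) and a difference of -0.68 ± 0.12, lower in 8 of 10. On HF/HS the 3 genes stood at -0.90, -0.94 and -0.91. The 4 immunity-related GTPases were between -0.25 and -0.47 on control and between -0.22 and -0.65 on HF/HS.

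Ifit1 (chr19:34640888-34650009), which binds viral RNA caps that lack a methyl group, was the clearest of the antiviral effectors. Control females ran from 2.41 to 19.98 (median 8.43) and control males from 0.926 to 16.1 (median 5.13), a difference of -0.54 ± 0.10 (limma adjusted p = 3.66e-06) with overlapping ranges and 9 of 10 strains lower in males. On HF/HS the medians were 8.99 (3.12 to 49.4) and 4.75 (1.004 to 10.3), all 10 strains were lower in males, and the difference was -0.77 ± 0.10. Ifit3 (-0.41 and -0.66) and Rsad2 (-0.25 and -0.30) were lower in males on both diets, Ifit2, Mx1 and Mx2 on HF/HS. Bst2 went the other way on control, at 0.19 ± 0.06, with a lower male mean in 4 of 10 strains, and was at 0.02 on HF/HS. In CC060, a strain whose libraries differed in kind, Bst2 was at 135, 365 and 279 in control females and at 481, 423 and 943 in control males.

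The sensors, transcription factors and OAS genes were mainly called on HF/HS. Dhx58 was higher in males on control (0.23 ± 0.06, limma adjusted p = 0.00237) and lower on HF/HS (-0.20 ± 0.06, adjusted p = 0.00765). Irf7 was at -0.14 on control, not called, and at -0.56 ± 0.08 on HF/HS, where 9 of 10 strains were lower in males. All 4 transcription factors, all 3 sensors and all 6 OAS genes were lower in males on HF/HS, against 1, 0 and 1 on control (Irf1 and Oas2). Rtp4 (-0.66), Ifi44 (-0.59), Parp14, an ADP-ribosyltransferase (-0.45), and Usp18 (-0.56) were lower in males on HF/HS and also on control. The 5 genes not called on HF/HS were Bst2, Ifi27, Ifi27l2b, Ifi35 and Tap1.

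The sex difference was not equal in every strain. On HF/HS, 40 of 41 genes had a lower male mean in CC003, CC011 and CC032, with a median log2 difference of -0.92 in CC011, and 37 in CC013, 38 in CC043, 35 in CC060 and 33 in CC019 and CC040. In CC042 it was 22 genes (median -0.01) and in CC041 it was 14 (median 0.11). On control, CC060 stood opposite to most strains, with 7 of 41 lower in males and a median of 0.40. The HF/HS count of 36 became 33 without the CC003 and CC060 libraries, 33 without the 3 libraries that stood apart, and 24 with the strain as the unit.

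Markers of Kupffer, lymphoid and endothelial cells moved with sex. On control, 12 of 14 Kupffer cell markers were lower in males and 0 higher, against 18.8% of all genes tested that were lower. On HF/HS 13 of 14 were lower, against 20.8%. Clec4f, a marker of Kupffer cells named here after its values were seen, was at -0.40 and -0.70. The 14 summed to between 343 and 1318 (median 637) in control males and between 209 and 1106 (median 671) in HF/HS males, against the female sums given above. Of 7 tested T and NK cell markers, 6 were lower and 1 (Cd4) higher in males on each diet, at low levels: the sum was between 2.99 and 45.6 in control females and between 2.49 and 36.2 in control males, and on HF/HS between 3.88 and 42.6 and between 3.49 and 26.6. Of 7 neutrophil markers, 0 were called on control and 6 were lower in males on HF/HS. Of 11 endothelial markers, 9 were lower in males on control and 8 on HF/HS, and 0 were higher on either diet. Hepatocyte markers were split, 2 higher and 2 lower of 12 in HF/HS males. The part of cell numbers in the sex difference was not tested.

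**Figure D3:**
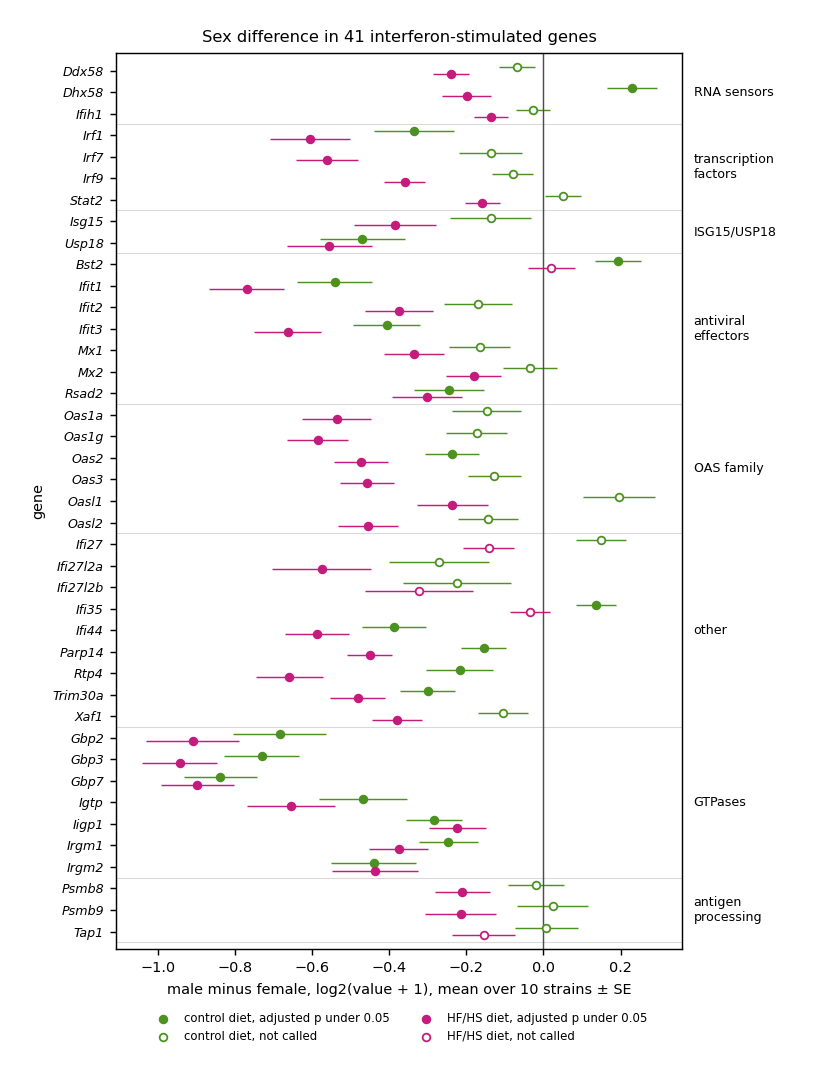
Male minus female in log2(value + 1), mean over 10 strains ± SE, on the x axis, for each of the 41 genes on the y axis, ordered by role; control diet in green, HF/HS in magenta, filled where the adjusted p was under 0.05. Magenta points lie left of 0 for 40 genes and are filled for 36, while green points are filled for 20, with Bst2, Dhx58 and Ifi35 on the right.

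Strains differed on the control diet in all 41 genes (limma F test, adjusted p under 0.05), and so did 96% of all genes tested, so the count says little by itself. The size of the differences was wide. The ratio of the highest to the lowest strain median was between 1.97 (Ddx58) and 217 (Ifi27l2b), with a median of 6.60. The lowest strain was CC043 for 30 of 41 genes and the highest was CC013 for 25, and for 38 genes the libraries of the 2 extreme strains did not overlap. The extremes were picked from these same values. Ratios, strain order and overlap were not computed over all genes tested, so they describe these genes without showing a trait particular to them. Over the 8 strains other than CC003 and CC060, CC043 was lowest for 32 genes and CC013 highest for 29, with ratios from 1.53 to 217 (median 6.43). Immune cell markers differed between these 2 strains as well. The Kupffer marker sum was 1492 to 2012 in CC013 control females and 534 to 723 in CC043 control females, and 976 to 1129 and 404 to 521 in the males. The T and NK cell sum was 33.4 to 45.6 and 4.01 to 4.83 in the females, and 21.03 to 26.3 and 3.17 to 4.30 in the males. The B cell sum was 14.8 to 26.3 and 2.62 to 8.72 in the females. The part of these markers in the strain order was not tested.

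Irf7 followed that order. Its control libraries ran from 2.52 to 4.56 in CC043 (median 3.21) and from 3.95 to 14.3 in CC019 (median 7.68). Above them, CC041, CC042, CC003, CC032, CC011 and CC060 had medians between 11.3 and 30.1, and neighbours in this order overlapped, apart from CC041 (10.1 to 15.4) and CC042 (17.3 to 24.1). CC040 had a median of 44.1 (27.2 to 63.4) and CC013 of 64.0 (39.8 to 74.9), which also overlapped each other. The limma F test over strains gave an adjusted p of 1.30e-34, between 4.63e-38 and 9.02e-24 over the alternatives tried.

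The 2 Mx genes, dynamin-like GTPases that trap viral nucleoproteins, did not share 1 order of strains. Mx1 (chr16:97447034-97462906) was highest in CC013, from 15.9 to 22.5 (median 18.3), followed by CC060 (median 8.82, 6.86 to 17.6), CC042 (6.88, 6.20 to 7.72) and CC011 (3.86, 2.21 to 7.06). It was at or under 2.45 in every control library of the other 6 strains, with the lowest median in CC043 (0.146) and a value of 0 listed in 4 libraries of both diets together. Mx2 (chr16:97536080-97560901), its neighbour, was lowest in the same CC013 livers, from 0.439 to 0.751 (median 0.585), and high in CC060 (93.0, 63.2 to 117.5), CC042 (63.0, 55.9 to 68.7) and CC011 (24.6, 18.7 to 32.8). Other strains had Mx2 medians between 2.11 and 8.35. The 3 strains CC011, CC042 and CC060 thus had high values of both genes, and CC013 of Mx1 alone.

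The Ifi27 group also differed in order between its members. Ifi27 was highest in CC013 (median 275, 203 to 392) and lowest in CC011 (16.4, 11.8 to 22.2), whose libraries lay under those of all other strains. Ifi27l2a had the same extremes, with medians of 61.7 and 0.528. Ifi27l2b was highest in CC011 (31.8, 17.0 to 86.9) and at 0.580 (0.138 to 1.42) in CC013, with CC040 lowest at 0.147 (0.1196 to 0.289). These genes belong to 1 family, and how reads were divided among them in each strain was not tested.

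**Figure D4:**
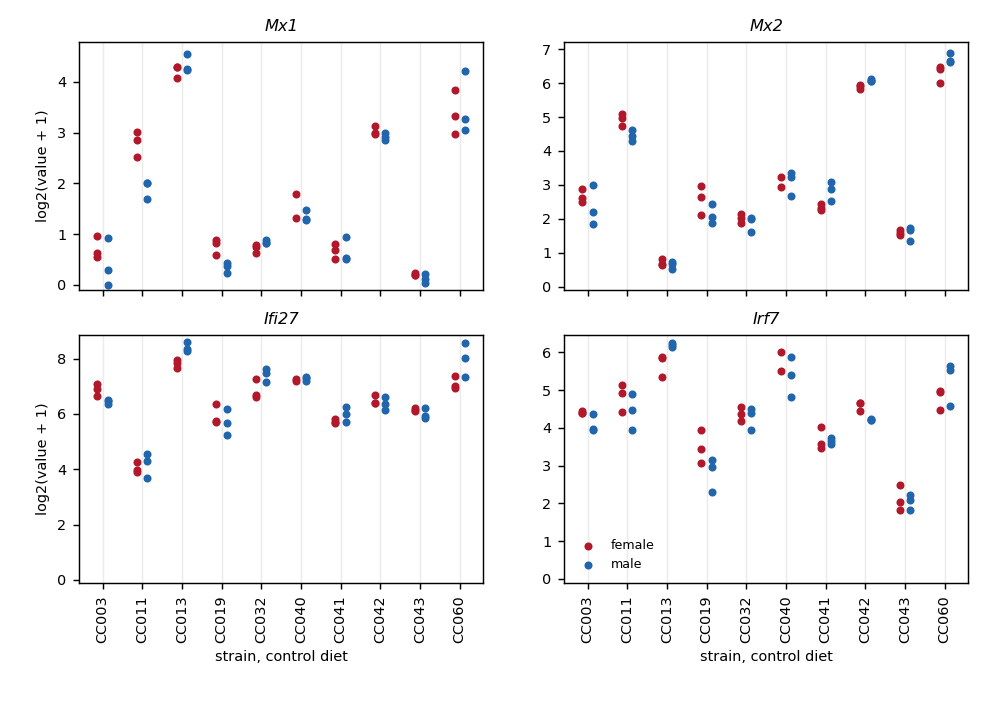
log2(value + 1) of Mx1, Mx2, Ifi27 and Irf7 on the y axes in each control-diet library, by strain on the x axis, females in red and males in blue. CC013 is highest for Mx1, Ifi27 and Irf7 and lowest for Mx2, and CC011 is lowest for Ifi27.

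The response to diet differed between strains in 16 of 41 genes (39.0%), against 6.02% of all genes tested (limma F test, adjusted p under 0.05). In single groups of strain and sex there were 38 calls over 20 groups. Rises were called for 8 of 41 genes in CC041 males (2.66% of all genes rose in that group), 2 in CC043 females (0.361%) and 1 each in CC003 females (4.37%), CC032 females (2.63%), CC041 females (0.166%), CC043 males (0.948%) and CC060 females (1.27%). Falls were called for 15 in CC060 males (11.3% of all genes fell), 4 in CC013 males (0.293%) and 4 in CC032 males (0.858%). The other 10 groups had no call among the 41.

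CC041 males carried most of the rises. Irf7 was at 10.8, 12.3 and 11.5 in the control libraries and at 26.4, 29.3 and 21.5 on HF/HS, with no overlap, a log2 difference of 1.08 ± 0.25 (limma adjusted p = 0.00674). Gbp3 went from 2.24, 3.39 and 1.85 to 8.83, 6.87 and 10.3, again without overlap, by 1.47 ± 0.31. Tap1 went from 11.7, 12.4 and 12.9 to 24.1, 19.8 and 28.1. Psmb8, Psmb9, Gbp2, Iigp1 and Ifi27l2b were the others called, and 40 of 41 genes were above 0 (median 0.53). The Kupffer marker sum in these males was 498 to 551 on control and 920 to 1106 on HF/HS, without overlap, and its part in the rises was not tested. In CC041 females 39 of 41 genes were above 0 (median 0.41), and Dhx58 was called: 3.52, 2.67 and 5.16 on control and 6.08, 7.17 and 8.51 on HF/HS.

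CC060 males carried most of the falls. The 15 genes were Ifi27, Stat2, Mx2, Xaf1, Ifi35, Oas1a, Irf7, Irf9, Psmb8, Ifi27l2a, Oas2, Oas1g, Isg15, Oasl1 and Rtp4, and 39 of 41 genes were below 0 (median -0.55). Ifi27 went from 259, 160 and 382 to 114, 123 and 131, and Mx2 from 97.9, 99.2 and 117.5 to 45.3, 71.4 and 47.6. Neither gene's libraries overlapped between the diets. Irf7 went from 45.5, 23.01 and 48.7 to 14.9, 24.0 and 19.3, with 1 HF/HS library above the lowest control library. This was also the group with the most calls among all genes tested, 20.2% in either direction, and its Kupffer marker sum was 853 to 1318 on control and 645 to 757 on HF/HS. The control group holds the library that stood apart (library 1), without which 12 of the 15 falls remained, 1 gene rose, 27 of 41 genes were below 0 and the median was -0.33. Control library 3 had a hepatocyte marker sum of 245726, against 101714 and 87003 in the other 2, and the part of these libraries beyond that omission was not tested. Females of this strain had a median difference of 0.28, and Bst2, at 135, 365 and 279 on control, was at 494, 479 and 462 on HF/HS and was called (0.99 ± 0.19).

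CC043, the strain with the lowest levels on control, showed rises in both sexes. Ifi27l2b was at 2.21, 2.50 and 1.57 in control females and at 18.6, 7.19 and 26.5 on HF/HS, and at 3.35, 2.79 and 2.199 in control males and 40.5, 7.42 and 30.3 on HF/HS. The diets did not overlap in either sex, and the log2 differences were 2.42 ± 0.44 and 2.57 ± 0.44 (limma adjusted p = 0.000621 and 0.000122). Irf7 in females went from 4.56, 3.12 and 2.52 to 11.6, 8.44 and 8.87, by 1.29 ± 0.25, and 40 of 41 genes were above 0 in each sex. In CC043 females the Kupffer marker sum was between 534 and 723 on control and between 839 and 896 on HF/HS. That of recruited macrophages and monocytes was between 129 and 187 and between 251 and 312, that of T and NK cells between 4.01 and 4.83 and between 7.89 and 9.52, and that of neutrophils between 3.82 and 7.14 and between 16.9 and 21.7. None of these 4 sums overlapped between the diets, and their part in the rises was not tested. In the males the Kupffer sum was 404 to 521 and 509 to 652, with overlap.

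In CC032, different genes were called in the 2 sexes. Ifi27l2b was at 17.96, 12.4 and 10.9 in control females and at 56.0, 62.1 and 61.8 on HF/HS, a log2 difference of 2.08 ± 0.44 without overlap. It was also higher on HF/HS in males, from 8.90, 16.4 and 6.89 to 18.1, 27.5 and 30.5, by 1.22 ± 0.44, which was not called (limma adjusted p = 0.192). In males, Ifit1 went from 16.1, 11.8 and 12.1 to 3.45, 3.91 and 3.97, by -1.58 ± 0.31 (limma adjusted p = 0.000463), and Ifi27 from 178, 142 and 196 to 61.9, 73.6 and 84.9, by -1.22 ± 0.21. Neither overlapped. Rsad2 and Iigp1 were the other 2 falls in these males, while female Ifit1 was at 19.98, 16.1 and 14.8 on control and at 8.72, 49.4 and 14.3 on HF/HS, the highest of these being the library that stood apart. In CC013 males 40 of 41 genes were below 0 (median -0.48) and Oas3, Oas1g, Ifi44 and Oasl2 fell, and Irf7 went from 71.8, 74.9 and 69.9 to 38.6, 36.5 and 38.9 without overlap, but was not called (limma adjusted p = 0.0822). The Kupffer marker sum in CC013 males was between 976 and 1129 on control and between 806 and 971 on HF/HS, without overlap. In CC032 females it was between 806 and 1251 on control and between 1324 and 2013 on HF/HS, without overlap, and in CC032 males between 637 and 873 and between 750 and 1064, with overlap. Its part in these changes was not tested. A test of strain, sex and diet together was not run.

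The count of 16 genes whose diet effect differed between strains was 7 without CC041, 6 without the male HF/HS libraries numbered 3, 9 without those numbered 1, 10 without the female control libraries numbered 3 and 26 without the 3 libraries that stood apart. Of the 4 genes with the lowest p, Ifi27l2b, Irf7 and Ifi27 were called under each alternative and Ifit1 under each but 1 (adjusted p = 0.0524 without CC041). The 38 calls in single groups became 16, 25 and 25 without the male HF/HS libraries numbered 1, 2 and 3, and 23 without the male control libraries numbered 3.

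**Figure D5:**
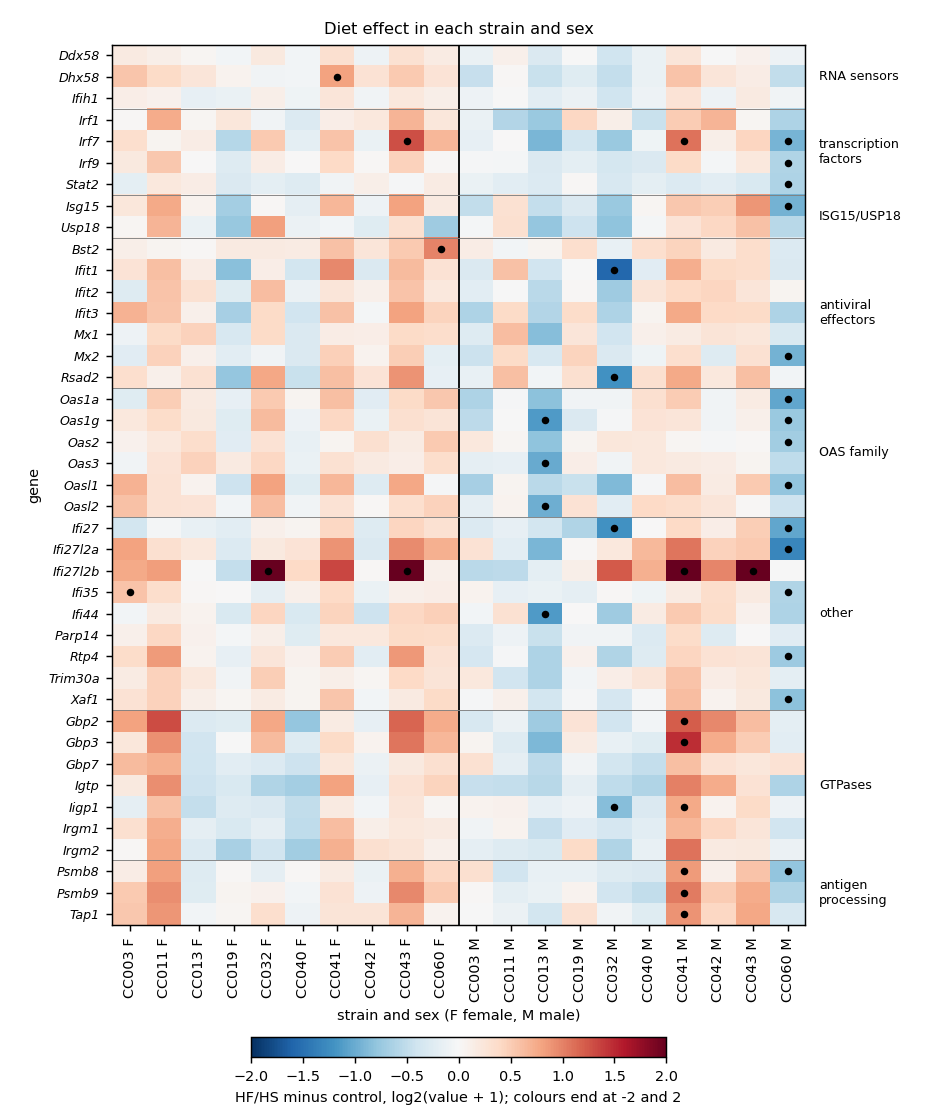
HF/HS minus control in log2(value + 1), as colour (red higher on HF/HS, blue lower), for the 41 genes on the y axis, ordered by role, in 20 groups of strain and sex on the x axis. Black dots mark the 38 calls at an adjusted p under 0.05, with 15 in the column of CC060 males and 8 in that of CC041 males.

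The rest of the pathway was read from lists of genes outside the 41. Over all genes tested, 9.15% rose and 7.52% fell in females, and 10.6% rose and 9.37% fell in males. On control 18.8% were lower and 23.2% higher in males, and on HF/HS 20.8% and 23.8%. Of 15 interferon and cytokine ligands, 3 passed the minimum (Il15, Il18 and Ifnk), and none rose in females. Ifnb1 was listed at 0 in 114 libraries and Ifng in 75, and Ifna4, Ifna5, Ifne, Ifnl2 and Ifnl3 in all. Of 10 tested receptor and JAK-STAT genes, 3 rose in females, among them Ifngr2 (0.20) and Il10rb (0.19), and 5 were lower in males on control and 4 on HF/HS. Of 16 nucleic acid sensing genes, Traf3 (0.18), Tmem173, which encodes STING (0.21), and Aim2 (0.15) rose in females. In males 3 were lower and 4 higher on control, near the shares over all genes tested, and 6 were lower and 3 higher on HF/HS. Of 12 inhibitors, Trex1, Ptpn6 and Nlrx1 rose in females by 0.21, 0.20 and 0.13. On HF/HS 5 inhibitors were lower in males and 3 higher, and on control 4 were lower and 1 higher. With diet in males, 2 receptor and JAK-STAT genes, 1 sensing gene and 2 inhibitors rose, and 1 sensing gene fell.

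Interferon-stimulated genes outside the 41 were counted in the same way, with the same shares over all genes tested. Of 64 tested, 22 rose in females and 0 fell, with Lgals3bp (0.27), Ifi30 (0.46) and Samd9l (0.25) at the lowest p. In males 3 rose and 2 fell, and 26 were lower in males on control and 50 on HF/HS (median -0.15 and -0.32). The direct test of the male minus female diet effect called 0 of the 64. Of 18 class I antigen presentation genes, 4 rose in females, among them B2m (0.18), Tap2 (0.17) and Nlrc5 (0.22), and 6 fell in males. On HF/HS 10 were lower in males and 2 higher. The direct test of the diet effect between the sexes called 1 of the 18, lower in males. These lists hold genes picked as interferon targets from general knowledge, with earlier results of these data known.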

How the data were processed

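Liver RNA of 10 Collaborative Cross strains, 2 sexes and 2 diets was sequenced in 120 libraries, 3 per group, and 1 pair of identical columns was left out. The authors deposited 1 table of FPKM-like values: per the submitters' processing notes, Cufflinks 2.2.1, TopHat2 2.1.1 and Bowtie2 2.2.5.0 were used with mm10, and the values show a rescaling, since the 75th percentile of every library lies between 9.99 and 10.0. Counts were not used here, so depth is unknown and no interval for counting error can be given. The labels name a kit for total RNA and one for mRNA without saying which library had which. Of 24883 rows, 1 with a missing value was left out, and 821 shared a symbol with another row.

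Values were analysed as log2(value + 1) for the 13289 genes with a mean of at least 0.5, in 1 model with a mean for each of the 40 groups (limma 3.58.1 with trend and robust variances, statmod 1.5.0, R 4.3.3; 78 residual degrees of freedom). P-values were Benjamini-Hochberg adjusted over all genes tested and called at under 0.05. Differences are means over strains, and understate the change of low genes. The fit was tested on simulated data. Tables used Python 3.11, pandas 2.3.3 and numpy 2.4.6.

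The members, lists and tests were chosen with earlier results of these data known. All members may be named; values by group are given for the 4 with the lowest p in each of 6 comparisons, up to 3 genes per list, and the 10 genes most like the members, of which 1 is not reported here. Alternatives changed the pseudocount, filter, scaling, variance prior, library weights, replicate block, unit and the libraries or strains included. Replicate numbers did not pair the samples: 9 of 58 pairs of equal number had a correlation over 0.1.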

Additional observations from a re-analysis of the deposited data

Results flagged for a closer look

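The male minus female diet effect differed from 0 on the log2 scale for Dhx58 (-0.43), Irf7 (-0.42), Irf9 (-0.28) and Oas1g (-0.41), by the limma test of the difference itself. These came to notice because the 2 sexes' diet effects differed.

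The diet effect differed between strains in 16 genes. The limma F test gave an adjusted p of 1.41e-06 for Ifi27l2b, 0.000182 for Irf7, 0.000848 for Ifi27, 0.00243 for Ifit1, 0.00377 for Mx2, 0.00674 for Gbp3 and 0.00778 for Iigp1. It gave 0.0102 for Dhx58, 0.0106 for Irf9, 0.0121 for Irgm1, 0.0136 for Isg15, 0.0187 for Psmb8, 0.0281 for Igtp, 0.0304 for Oasl1, 0.0414 for Psmb9 and 0.0469 for Ifit3.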

How the results depend on the processing

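The number of the 41 genes lower or higher in males on HF/HS stayed within 1.5 times of 36 under all 38 alternatives (24 to 39), and all genes left after filtering differed between strains on control (32 to 41). No named result reversed. The count of 4 for the sex difference in diet effect was 1 with a pseudocount of 0.1 or no filter, 2 with other size factors, and 0 without the CC003 and CC060 libraries (11 at an unadjusted limma p under 0.05) or with the strain as the unit (11). It was 1 without CC011 female HF/HS 1, without CC032 female HF/HS 2 or without all 3 libraries that stood apart, and 2 without CC060 male control 1. Taking strains as the unit, the counts were 2 for diet over all groups, 0 in females (19 unadjusted), 1 in males and 9 for sex on control. Library weights gave 8 in males, 39 for strain differences in diet effect and 158 in the 20 single groups. Shares over all genes tested are not given for any alternative. A change in calls common to all genes thus cannot be told apart from one in the 41. Without the 3 libraries, females had 7 (10 without CC032 female HF/HS 2 alone) and strain differences in diet effect 26. Leaving out the libraries of 1 number in 1 sex and diet gave 5 to 10 for diet over all groups, 5 to 18 in females, 3 to 7 in males, 0 to 6 for their difference, 17 to 22 and 31 to 37 for sex on control and HF/HS, 6 to 19 for strain differences in diet effect and 16 to 53 in single groups. Leaving out 1 strain gave 4 to 12, 5 to 21, 3 to 9, 1 to 7, 16 to 23, 30 to 39, 7 to 20 and 27 to 43 in the same order. With a replicate block the counts were 10, 16, 4, 4, 20, 36, 16 and 39. The cause of these changes in counts was not tested. Depth limits cannot be given, as the values hold no counts.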

Other observations

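Class II antigen presentation genes, induced by interferon gamma through Ciita, stood outside the 41. All 8 tested rose in females on HF/HS (median log2 difference 0.47), with H2-DMb1 at 0.48, H2-Ab1 at 0.55 and H2-Aa at 0.54 (limma adjusted p = 0.00217, 0.00246 and 0.00346), against 9.15% of all genes tested. In males 0 were called, and on HF/HS all 8 were lower in males (median -0.54). The direct test of the male minus female diet effect called 0 of the 8. Of 9 recruited macrophage and monocyte markers, 4 rose in females, led by Mmp12 (0.91), Gpnmb (0.78) and Itgax (0.30), and 5 in males. Over all genes tested, 9.15% rose in females and 10.6% in males.

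Among other cell markers, with diet in females, 4 of 10 stellate cell and fibroblast genes rose (Col3a1 by 0.50, Col1a1 by 0.39, Col1a2 by 0.29), 1 of 4 plasmacytoid dendritic cell genes (Lair1, 0.24), 1 of 4 bile duct genes (Spp1, 0.40) and 1 of 2 red blood cell genes (Alas2, 0.42). Of 11 endothelial, 7 neutrophil, 7 T and NK cell and 2 B cell genes 0 were called, and 5 of 12 hepatocyte genes fell (Ahsg by 0.32, Apoh by 0.20, Cps1 by 0.28). Over all genes tested, 9.15% rose and 7.52% fell in females. Among 7 tested RNAs that lack a poly(A) tail, 0 were called in females and 3 fell in males, where 9.37% of all genes tested fell.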
